A study of Mus musculus with 16 samples.

Results

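The Schlafen genes are a mouse gene family that sits in a single cluster, and 7 of its members were followed here in kidney RNA: Slfn1, Slfn2, Slfn3, Slfn4, Slfn5, Slfn8 and Slfn9. They were chosen by the rise of Slfn8 in Fcgr2b-/- over wild-type mice, so the values of that comparison are a description, with no p. The 7 members stand among 22911 named genes on the arrays. Probes were taken where the transcript accession on the array belonged to a member gene, which gave 11 of 56605 probes. Of these, 8 probes of 5 members (Slfn2, Slfn3, Slfn5, Slfn8 and Slfn9) entered the tests, for which a probe had to exceed background clearly on 4 or more of 16 arrays. Slfn1 and Slfn4 did not, and their values are given without a fold change.

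One kidney RNA sample from each of 16 mice was hybridized to its own one-color array, with 4 mice in each of 4 genotypes, all labelled as 6 months of age. C57BL/6 is the labelled strain of both the wild-type and the Sting gt/gt animals, and the Fcgr2b-/- and the Fcgr2b-/-.Sting gt/gt (double-deficient) mice are labelled as a mix of 129 and C57BL/6. Loss of Fcgr2b and strain background therefore cannot be told apart. The wild-type mice were bought in, per the study's methods, while the double-deficient mice came from a cross of both mutant lines. Fcgr2b encodes the inhibitory Fc receptor for IgG and its loss leads to a lupus-like disease, whereas Sting gt is a point-mutant allele that acts as a functional knockout of the DNA-sensing adaptor STING. The lupus group is labelled with the Fcgr2b deletion alone, and one heat map legend of the study names it so too, but another gives it as Fcgr2b-/-.Sting wt/gt.

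Schlafen genes are known as interferon-inducible genes of immune cells, and they restrain growth, protein synthesis and virus replication. Slfn1 to Slfn4 encode shorter proteins studied mainly in T cells and macrophages, while Slfn5, Slfn8 and Slfn9 encode long forms that carry an added helicase-like domain. STING, when it senses cytosolic DNA through cGAMP, turns on type I interferon, whose signal reaches promoters through interferon-stimulated response elements (ISRE).

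Each member's promoter in RefSeq (GRCm38.p6, 250 bases before to 50 after the start of the gene) was searched on both strands for the ISRE-type letters GAAANNGAAA, which read TTTCNNTTTC on the other strand. The promoters of Slfn5, Slfn8 and Slfn9 held 1 match each and those of Slfn1, Slfn2, Slfn3 and Slfn4 held none. Of 32851 promoters of the same length, 3.44% held a match. Counted by gene, 3.99% of 27025 genes had a match in any promoter, and of 56 interferon-list genes with a promoter, 25 (44.6%) did. The STAT site TTCNNNGAA (GAS) was not found in any member's promoter, where 8.30% of all promoters held it, so no ISRE-type match overlapped a GAS site. No other motif was searched for. The 3 windows below are shown because they are the only member promoters with the element, each 5′ to 3′ in the direction of the gene, with the match in capitals.
Slfn5 (chr11:82951927-82951976, plus strand): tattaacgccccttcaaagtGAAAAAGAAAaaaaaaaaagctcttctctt
Slfn8 (chr11:83020829-83020878, minus strand): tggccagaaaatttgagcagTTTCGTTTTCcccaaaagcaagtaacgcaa
Slfn9 (chr11:82991846-82991895, minus strand): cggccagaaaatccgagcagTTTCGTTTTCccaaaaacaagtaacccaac

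The first base of the match lay at −48 from the start of Slfn8 and at −45 from that of Slfn9, and the letters of the match were the same in both. RefSeq holds another start of Slfn8, from which the same match lies at −136. With the first of these starts, Slfn8 and Slfn9 were also near copies over the whole promoter, with 252 of 300 bases identical (84%), where the other pairs of members reached at most 62.3%. The Slfn5 match lay at −155 and ran on into a stretch of adenines. A match in these letters is a description of sequence and no measure of binding. RNA of near-identical members may not be separated by the probes, in particular for Slfn8, Slfn9 and the neighboring pseudogene Slfn10-ps.

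Values below are log2 processed signal minus the 75th percentile of the same array, so they compare mice for one probe and not one probe with another. Across the arrays, 28441 to 35565 probes were well above background, and 4 mice in a genotype limit how precise a mean can be. Fcgr2b itself ran from 1.14 to 2.13 in the wild-type mice and from −0.40 to 0.70 in the 8 mice labelled as lacking it. The Sting gt/gt mice ran from −0.19 to 1.54, and their mean of 0.78 lay below the lowest wild-type mouse. Sting gt/gt replicate 4 was the lowest of them, at −0.19, among the deficient mice. For the members, the log2 differences over both slides between Sting gt/gt and double-deficient or wild-type mice are given with and without that array. Intervals, p values and other genes are given with it only. The Sting1 probe did not separate the Sting genotypes.

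Slfn8 was at −1.19, −4.38, −3.71 and −2.82 in wild-type replicates 1 to 4 and at 0.56, −3.00, −2.49 and −0.30 in the Fcgr2b-/- replicates. It was at −2.68, −1.35, −2.09 and −3.07 in the double-deficient mice and at −0.83, −2.62, −2.15 and −2.27 in the Sting gt/gt mice. Fcgr2b-/- replicates 1 and 4 were the highest of all 16 mice, whereas replicates 2 and 3 lay within the wild-type range, and every pair of genotypes overlapped. The genotype means were −3.03 ± 1.38 (SD, n = 4) in wild-type, −1.31 ± 1.71 in Fcgr2b-/-, −2.30 ± 0.75 in double-deficient and −1.96 ± 0.78 in Sting gt/gt mice. The probe was not well above background in wild-type replicate 2, the lowest mouse. A further Slfn8 probe, to another transcript, was well above background on 3 arrays and was not tested.

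Slfn2, which keeps T cells and monocytes in a quiescent state, was at 0.69, −1.83, −1.67 and −0.99 in the wild-type and at 2.47, −0.42, −1.04 and 1.31 in the Fcgr2b-/- mice. Among double-deficient mice it was at −0.56, 0.53, −0.78 and −1.48, and among Sting gt/gt mice at 0.82, −1.0, −0.22 and −1.27. The same Fcgr2b-/- replicates 1 and 4 were again the highest of all mice, and the groups overlapped. Slfn2 was well above background on all 16 arrays, and its means were −0.95 ± 1.15 (SD, n = 4), 0.58 ± 1.6, −0.57 ± 0.83 and −0.42 ± 0.94 in the wild-type, Fcgr2b-/-, double-deficient and Sting gt/gt mice.

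Slfn5, a long member described as a regulator of transcription in interferon responses and cell motility, had 3 probes, all tested. Its brightest probe was at 2.55, −0.40, −0.25 and 0.82 in the wild-type and at 3.30, −0.28, 0.45 and 1.73 in the Fcgr2b-/- mice. It was at 0.59, 1.97, 1.06 and 0.30 in the double-deficient and at 2.97, 0.80, 1.5 and 0.98 in the Sting gt/gt mice. Here the first replicates of the Fcgr2b-/-, Sting gt/gt and wild-type groups were the 3 highest mice, and they came from 3 genotypes. The 3 Slfn5 probes followed each other closely over the mice, with Pearson r of 0.94 to 0.96 and the same 3 highest mice.

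Slfn3, known from T cells and gut epithelium, was well above background on 10 of the 16 arrays. It was at −2.40, −5.76, −5.81 and −4.31 in the wild-type and at −1.90, −5.94, −4.97 and −3.91 in the Fcgr2b-/- mice. It was at −4.76, −3.06, −4.38 and −6.33 in the double-deficient and at −2.38, −4.98, −3.24 and −3.90 in the Sting gt/gt mice. These last were the one group with Slfn3 above background on 4 of 4 arrays, against 2 of 4 in each other genotype. The cut-off differed between arrays, since Sting gt/gt replicate 2 passed at −4.98 and double-deficient replicate 1 did not at −4.76.

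The 2 probes of Slfn9 gave different pictures. The brighter one was at 1.36, −0.55, 0.76 and 0.57 in the wild-type and at 1.57, −0.94, 0.87 and 0.77 in the Fcgr2b-/- mice. It was at −0.02, 1.26, 1.01 and 0.24 in the double-deficient and at 1.08, 0.94, 1.0 and 3.27 in the Sting gt/gt mice. Sting gt/gt replicate 4 stood far above all other mice on that probe. On the dimmer probe the same mouse was at −2.13, in the middle of the range, and Fcgr2b-/- replicates 1 and 4 were the highest, at 1.44 and −0.54. The dimmer probe was not well above background in the lowest mouse, Fcgr2b-/- replicate 2, at −4.21.

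**Figure D1:**
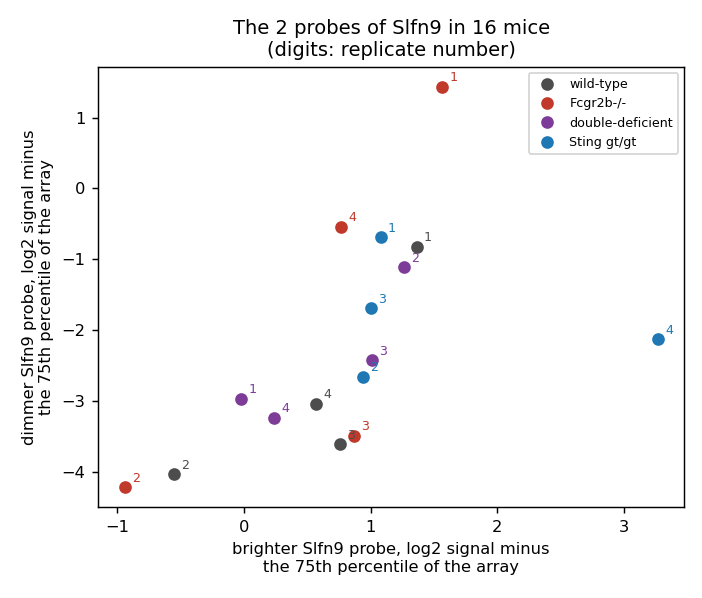
The dimmer Slfn9 probe (vertical) against the brighter one (horizontal), both as log2 signal minus the 75th percentile of the array, for 16 mice colored by genotype with replicate numbers beside the points. Most mice lie along one band, while Sting gt/gt replicate 4 lies at 3.27 on the brighter and −2.13 on the dimmer probe.

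Over the 16 mice the 2 Slfn9 probes correlated with a Pearson r of 0.55 and a Spearman rho of 0.77, and with an r of 0.73 without the 2 mice farthest from the median. The dimmer Slfn9 probe followed Slfn8 with an r of 0.95, and Slfn10-ps followed Slfn8 with an r of 0.98. Neither probe is taken here as the better measure of Slfn9. The differences are given for both.

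Slfn1, a regulator of thymocyte growth, was well above background on 2 of 16 arrays, Fcgr2b-/- replicate 1 at −3.94 and Sting gt/gt replicate 3 at −2.57. Slfn4, a myeloid member, was well above background on 0 of 16 arrays. Of the relatives outside the 7 members, Slfn14 and Slfnl1 were above background on 0 arrays and Slfn10-ps on 12.

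**Figure D2:**
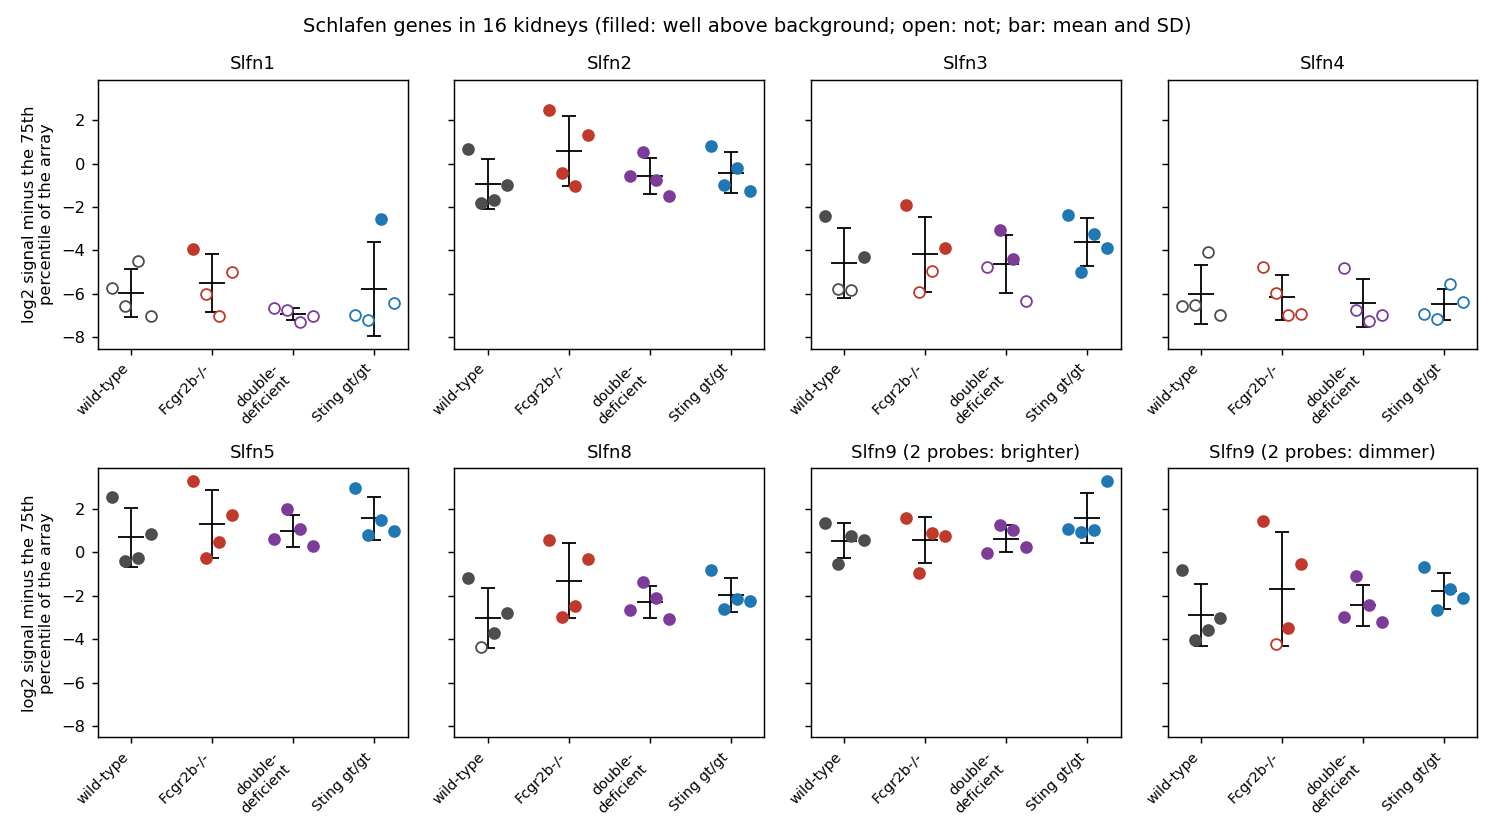
Log2 signal minus the 75th percentile of the array (vertical) for the 7 members, with both tested probes of Slfn9, in the 4 genotypes. Each point is a mouse, filled where the probe was well above background and open where it was not, and bars are the mean and SD of 4 mice, so the spread within a genotype can be set against the shifts between genotypes.

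Most of the variation lay among mice of one genotype. For the 8 tested probes, 9.11% to 25.5% of the sum of squares over the 16 mice lay between genotypes, and the SD within genotypes was 0.93 to 1.62. Between the highest and the lowest of all 16 mice, Slfn8 differed 30.8-fold, Slfn2 19.6-fold and the dimmer Slfn9 probe 50.1-fold. Fcgr2b-/- replicate 1 was the highest mouse on 7 of the 8 probes. The first replicates of the wild-type and the Sting gt/gt group were among the 5 highest mice on all 8 probes, and double-deficient replicate 2 on 7. Wild-type replicate 2 and double-deficient replicate 4 were among the 5 lowest on all 8 probes. Each genotype thus held at least 1 high and at least 1 low mouse, apart from the Sting gt/gt group, whose mice were among the 5 lowest on at most 1 probe.

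**Figure D3:**
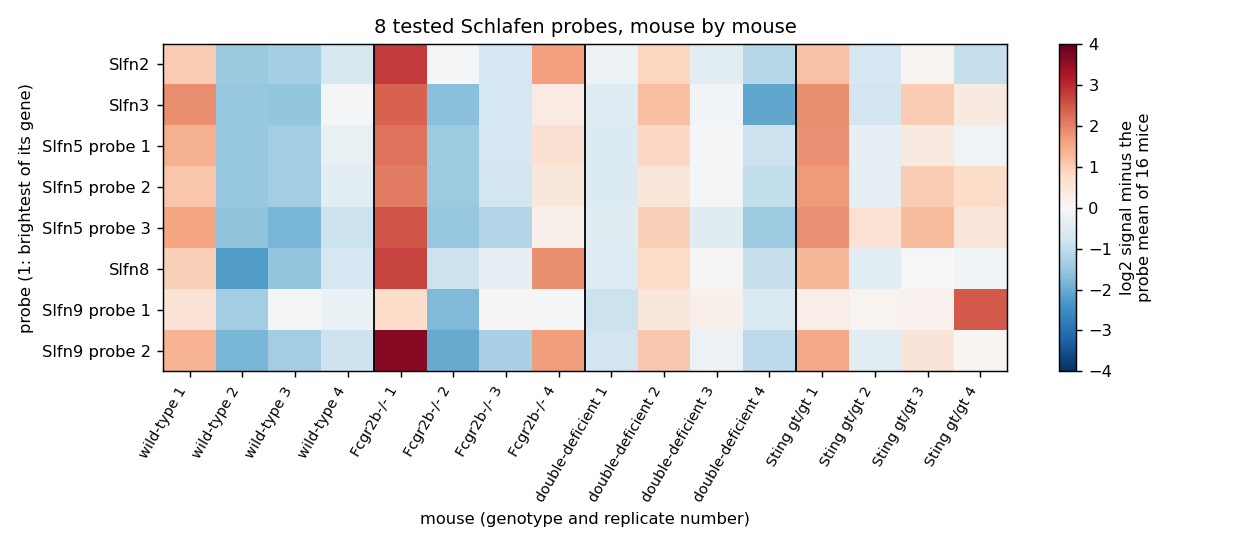
The 8 tested probes (rows, probe 1 being the brightest of its gene) in 16 mice (columns, split by genotype), colored by log2 signal minus the probe's mean over the 16 mice. Columns are of one color more than blocks are: Fcgr2b-/- replicate 1 is high on all probes and wild-type replicate 2 is low on all probes.

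The double-deficient and Sting gt/gt mice both lack functional STING and differ in Fcgr2b and in strain background, and neither group was used in choosing the family. In this comparison limma called 0 of 35628 probes (0%), and 0 of the 5 members. By brightest probe, Slfn3 was the 1 member at least 2-fold lower, where 3.3% of all probes were. The dimmer Slfn5 probes were past 2-fold lower too, at −1.03 and −1.41. In 0 members did all double-deficient mice lie below all Sting gt/gt mice, where 0.702% of probes did. Slfn3 was just past 2-fold and no longer so with normexp (−0.34), quantile (−0.83) or median scaling (−0.88), in the authors' table (−0.84) or with a block by slide (−0.90), and without double-deficient replicate 4 it was at −0.44. At an unadjusted p under 0.05 there were 0 of the 5 members, where 3.05% of all probes passed. Slfn8 was lower in the double-deficient mice by a log2 difference of −0.33 (SE 0.79, 95% interval −2.01 to 1.34, adjusted p = 0.94 by limma). A two-sided exact permutation test of Slfn8 over the 8 mice gave p = 0.514, where 0.0286 is the smallest p it can give.

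For the other members, Slfn2 differed by −0.16 (95% interval −1.76 to 1.45), Slfn3 by −1.01 (−3.00 to 0.98) and Slfn5 by −0.58 (−2.23 to 1.06). The dimmer Slfn5 probes differed by −1.03 (−2.56 to 0.50) and −1.41 (−3.23 to 0.40). Slfn9 differed by −0.95 (−2.23 to 0.34) on the brighter and by −0.64 (−2.84 to 1.55) on the dimmer probe. The limma adjusted p of these values ran from 0.885 to 0.973. By brightest probe, all 5 members were below 0, though a block by slide put Slfn2 at 0.06. Their median was −0.58 against 0.03 over all named genes, and 51% of all probes were above 0. The intervals do not exclude changes of 2-fold in either direction for Slfn2, Slfn8 and the brightest Slfn5 probe. The comparison therefore does not show that the groups were alike. The spread behind these intervals was estimated over all 4 genotypes, including the 2 from which the family was chosen. For Slfn8 the SD was 0.75 and 0.78 in the double-deficient and Sting gt/gt mice, against 1.38 and 1.71 in the wild-type and Fcgr2b-/- mice. A fit to only the 2 groups compared called 2 probes and 0 members. Without Sting gt/gt replicate 4, the values were −0.44 for Slfn2, −1.1 for Slfn3, −0.78 for Slfn5, −0.43 for Slfn8 and −0.38 and −0.76 for the brighter and dimmer Slfn9 probe. The dimmer Slfn5 probes were then at −1.04 and −1.60. Without Sting gt/gt replicate 1, the highest of its group on Slfn8, Slfn2 turned to 0.26 and Slfn8 to 0.05.

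The arrays lay on 2 slides. Within slide 1 the Slfn8 difference between double-deficient and Sting gt/gt mice was −0.96 and within slide 2 it was 0.04, and for Slfn2 these were −0.47 and 0.17. Slfn3 was at −1.08 and −1.02 within the slides and the brighter Slfn9 probe at −1.03 and −1.30, while the dimmer was at −1.29 and −0.35. The brightest Slfn5 probe was at −1.30 and −0.13. Its dimmer probes were at −1.21 and −1.05, and at −1.69 and −1.22. Slide 1 held 1 of the 4 double-deficient arrays.

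**Figure D4:**
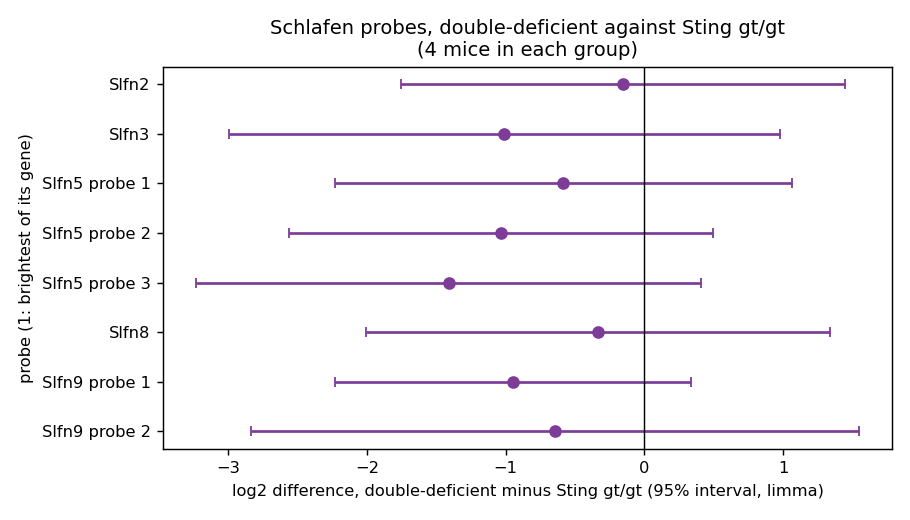
Log2 difference of double-deficient minus Sting gt/gt mice (horizontal, 4 mice in each group) for the 8 tested probes, with 95% intervals from limma. All points lie left of 0, between −1.41 and −0.16, and every interval includes 0.

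The next 4 comparisons share the wild-type or the Fcgr2b-/- arrays with the choice of the family and are descriptions. They also share those arrays with each other. Between Fcgr2b-/- and wild-type mice, 5 of 5 members were higher in mean, where 43.4% of all probes were, and 4 of 5 after scaling by the array median, which put Slfn9 at −0.13. At least 2-fold were Slfn8 with a log2 difference of 1.72 and Slfn2 with 1.53, where 4.33% of all probes were that much higher. Slfn5 was at 0.62, Slfn3 at 0.39 and Slfn9 at 0.03 on the brighter and 1.17 on the dimmer probe. In no member did all 4 Fcgr2b-/- mice lie above all wild-type mice, where 0.62% of probes did, and the 18 probes that limma called (0.0505%) held no member.

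These values moved with single mice. Without Fcgr2b-/- replicate 1 the differences were 1.1 for Slfn8, 0.90 for Slfn2, −0.05 for Slfn5, −0.37 for Slfn3 and −0.31 and 0.13 for the brighter and dimmer Slfn9 probe. Without wild-type replicate 1, the highest wild-type mouse, they were 2.33 for Slfn8, 2.08 for Slfn2, 1.24 for Slfn5, 1.11 for Slfn3 and 0.30 and 1.85 for the Slfn9 probes. Within slides, Slfn8 was higher by 1.88 on slide 1, which held 3 of the Fcgr2b-/- arrays, and by 0.78 on slide 2.

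Between double-deficient and Fcgr2b-/- mice, which share their strain label, Slfn2 was lower by a log2 difference of −1.15, Slfn8 by −0.99, Slfn3 by −0.45 and Slfn5 by −0.32. Slfn9 was at 0.06 on the brighter and −0.73 on the dimmer probe. Slfn2 was the 1 member at least 2-fold lower, where 2.64% of all probes were, and limma called 0 probes (0%). Over the other settings that used both slides and all mice, Slfn2 ran from −1.23 to −0.72 and Slfn8 from −1.13 to −0.74, on both sides of 2-fold. The mice of the groups overlapped for every member, where 0.281% of probes had every double-deficient mouse below every Fcgr2b-/- mouse. In mean, 4 of the 5 members were lower and 1 higher, where 57.5% of all probes were higher. The 1 higher member, Slfn9, turned to −0.27 with a block by slide, −0.34 as the median of its probes and −0.12 with a random block by animal label, which left 5 of 5 lower. Slfn8 was lower by −1.77 within slide 1 and higher by 0.32 within slide 2, and Slfn2 by −1.68 and 0.47, while the Slfn9 probes were at −0.49 and −1.86 on slide 1 and at −0.03 and 1.23 on slide 2. Without Fcgr2b-/- replicate 1, Slfn8 was at −0.37 and Slfn2 at −0.52, while Slfn3 and Slfn5 turned to 0.31 and 0.35 and the dimmer Slfn9 probe to 0.31.

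Sting gt/gt mice had higher means than wild-type mice for 5 of 5 members, where 50.1% of all probes were higher. Slfn8 was higher by a log2 difference of 1.06, Slfn9 by 1.04 and 1.08 on its 2 probes, Slfn3 by 0.94 and Slfn2 by 0.53. Slfn5 was higher by 0.88 on its brightest probe and by 1.31 and 1.72 on the dimmer ones. By brightest probe, Slfn8 and Slfn9 were past 2-fold, where 5.87% of all probes were, and so were the dimmer Slfn5 probes. Over the other settings that used both slides and all mice, Slfn8 ran from 0.46 to 1.06 and Slfn9 from 0.79 to 1.08. Neither stayed past 2-fold in all of them. The limma fit called 0 probes (0%). All members overlapped, where 0.587% of probes had every Sting gt/gt mouse above every wild-type mouse. Without Sting gt/gt replicate 4 the brighter Slfn9 probe was at 0.47 and no longer past 2-fold, the dimmer was at 1.20, Slfn8 at 1.16, Slfn5 at 1.07, Slfn3 at 1.04 and Slfn2 at 0.82. The dimmer Slfn5 probes were then at 1.32 and 1.90. Over single arrays left out, Slfn8 ran from 0.61 without wild-type replicate 2 to 1.67 without wild-type replicate 1, and Slfn2 from 0.12 to 1.08.

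Double-deficient mice were higher than wild-type by 0.73 for Slfn8, 0.38 for Slfn2, 0.30 for Slfn5 and 0.09 and 0.44 for the brighter and dimmer Slfn9 probe, the first of which median scaling put at −0.03, and Slfn3 was at −0.07, or 0.04 with a block by slide. None of these reached 2-fold, where 0.873% of all probes were at least that much higher. Single mice moved them widely, since Slfn8 ran from 0.28 without wild-type replicate 2 to 1.34, past 2-fold, without wild-type replicate 1. Likewise Slfn2 ran from 0.01 to 0.92, Slfn5 from −0.06 to 0.92, Slfn3 from −0.59 to 0.66 and the brighter Slfn9 probe from −0.27 to 0.36. In mean 4 of 5 members were higher, where 50.6% of all probes were, and all overlapped, where 0.317% of probes lay wholly above. The limma fit again called 0 probes (0%).

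Genes of the interferon response and of immune cells were read in the same mice. A list of 76 interferon-inducible genes that holds no Schlafen gene had 67 tested genes. In Fcgr2b-/- against wild-type mice 63 of the 67 were higher, 17 at least 2-fold and 0 called, with a median of 0.64. Oas2, an antiviral 2-5A synthetase, had the largest difference at 2.27, and its relatives Oas1a and Oasl2 were at 1.86 and 1.6. In the double-deficient against Sting gt/gt mice 17 of 67 were higher and 50 lower, 0 called, with a median of −0.28. Against the Fcgr2b-/- mice, 5 of 67 were higher in the double-deficient mice, with a median of −0.73.

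Mouse by mouse, Slfn8 followed the mean of that list with a Pearson r of 0.94, a Spearman rho of 0.88 and an r of 0.96 after genotype means were removed. Without Fcgr2b-/- replicates 1 and 4 the r was 0.87. Slfn2 followed the list with an r of 0.95, the dimmer Slfn9 probe with 0.92, Slfn5 with 0.88 and Slfn3 with 0.81, whereas the brighter Slfn9 probe stood at 0.34. These are descriptions over 16 arrays that share the scaling of each array, and no p is given.

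The leukocyte markers were read next. The 6 pan-leukocyte genes, which include Ptprc, Cd53 and Laptm5, were all at least 2-fold higher in Fcgr2b-/- than in wild-type mice in the mean, with a median of 1.92 and 0 called. Their linear signal, summed over the list in units of the array's 75th percentile, ran from 7.19 to 41.4 in wild-type, from 16.4 to 167 in Fcgr2b-/-, from 10.9 to 43.9 in double-deficient and from 12.4 to 41.7 in Sting gt/gt mice. Of 10 monocyte and macrophage genes, 7 were at least 2-fold higher in Fcgr2b-/- than in wild-type mice. Of 8 tested T cell genes 3 were, of 7 neutrophil genes 4, of 6 dendritic cell genes 1, of 5 B and plasma cell genes 1 and of 3 NK cell genes 0. In double-deficient against Fcgr2b-/- mice all 6 pan-leukocyte genes were at least 2-fold lower, with a median of −1.40, and 7 of the 10 monocyte and macrophage genes were. In double-deficient against Sting gt/gt mice, where 0 of the 5 Schlafen members were higher, 5 of 6 pan-leukocyte genes were higher with a median of 0.15 and 6 of 10 monocyte and macrophage genes with a median of 0.16. Neutrophil genes were higher in 5 of 7 (median 0.47) and NK cell genes in 3 of 3 (0.74). T cell genes were higher in only 1 of 8 (median −0.35), dendritic cell genes in 1 of 6 (−0.30) and B and plasma cell genes in 1 of 5 (−0.10). Of all named tested genes, 53.3% were higher. Among the defining markers, Cd79a and Blk of the B cell list and Ngp of the neutrophil list were never above background, and Cyp11b1 of the adrenal list was not either.

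Slfn2 followed the leukocyte mean over the 16 mice with a Pearson r of 0.96 and Slfn8 with 0.94, while Slfn5 stood at 0.80, Slfn3 at 0.69 and Slfn9 at 0.21 on the brighter and 0.86 on the dimmer probe. Proximal tubule genes, the main epithelium of the kidney, ran the other way. All 7 were measured, and r with their mean was −0.88 for Slfn8, −0.83 for Slfn2, −0.91 for Slfn5, −0.89 for Slfn3 and −0.62 and −0.95 for the brighter and dimmer Slfn9 probe. How many probes an array had above background moved with the members too, with an r of 0.68 for Slfn8, 0.49 for Slfn2 and 0.71 for Slfn5. The part of cell makeup and of array brightness in the Schlafen values was not tested. In whole kidney, more cells of a type and more RNA per cell cannot be told apart.

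**Figure D5:**
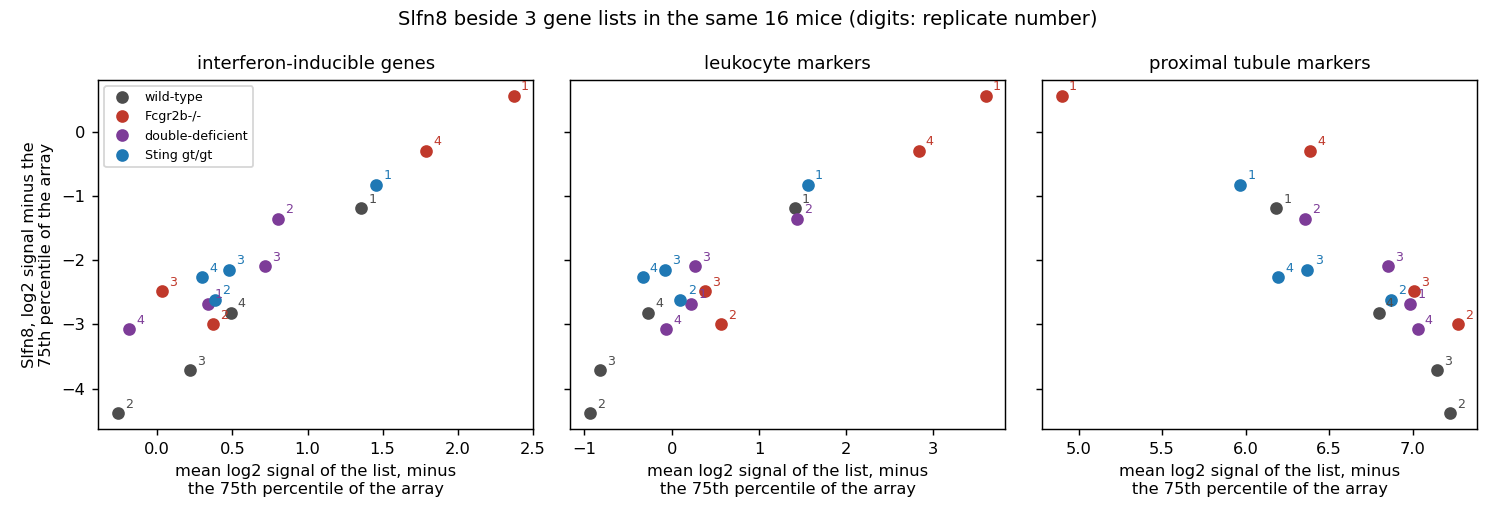
Slfn8 (vertical, log2 signal minus the 75th percentile of the array) against the mean of the interferon-inducible, leukocyte and proximal tubule lists (horizontal, the same unit) in 16 mice colored by genotype with replicate numbers. Slfn8 rises with the first and second list and falls with the third, with Pearson r of 0.94, 0.94 and −0.88.

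Of all lists, r with Slfn8 was the highest for dendritic cells, at 0.97. It was 0.92 for monocytes and macrophages, 0.89 for T cells, 0.81 for neutrophils, 0.71 for B and plasma cells and 0.70 for NK cells. For markers of other cells and tissues, r with Slfn8 was 0.17 for red cells, 0.48 for fat, −0.28 for adrenal gland, 0.69 for podocytes and −0.63 for thick limb and duct. Fat genes were the highest in wild-type replicate 1 and next in Fcgr2b-/- replicate 1 and Sting gt/gt replicate 1, which were also high in the Schlafen probes.

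Among 16386 named genes compared outside the family, those whose pattern over the 16 mice was most like Slfn8 were Gsdmd, Kcnk6, Axl, Tspyl3 and P2rx7, with Pearson r of 0.98 to 0.99. Gsdmd encodes the pore-forming protein gasdermin D, Axl a receptor tyrosine kinase that clears dying cells and P2rx7 an ATP-gated channel. The closest to Slfn2 were Slamf9, Ifi204, Ap1s2, Stk17b and Gngt2, with r of 0.97 to 0.98. Ifi204 is an interferon-inducible DNA-binding protein and Slamf9 a receptor of myeloid cells. Slfn5 had Peak1, Nid1, Fli1, Ano1 and Snai2, with r of 0.98 to 0.99. Nid1 encodes a basement membrane protein, Fli1 a transcription factor of endothelial and blood cells and Snai2 a transcription factor of mesenchymal cells.

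High correlation with many genes was common in these arrays. An r above 0.9 was reached by 524 genes for Slfn8, 340 for Slfn2 and 456 for Slfn5. It was reached by 89 for the brighter Slfn9 probe, which was closest to Gm7102, Gm14308, F830016B08Rik, Dnmt3aos and Pigr. The dimmer Slfn9 probe, named here after its values were seen, was close to Zap70, which encodes a T cell receptor kinase, and Gm1966.

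In the order of the RefSeq table the members lie together on chromosome 11. Of the 16 nearest genes of other families, 11 were tested. Their r with Slfn8 ran from −0.81 for Lig3 to 0.77 for Unc45b, a muscle myosin chaperone, with a median of −0.53. The non-coding gene AI662270, which lies between the Schlafen genes, was the 1 tested among 10 such genes and stood at 0.92. Its log2 difference was 1.59 in Fcgr2b-/- against wild-type and −0.12 in double-deficient against Sting gt/gt mice, and it was named for its place in the cluster.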

How the data were processed

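The deposited scanner files of 16 arrays hold intensity values that the authors extracted with Agilent Feature Extraction 11.0, background-subtracted and spatially detrended per the file headers, with no scaling between arrays. A deposited value table, used as an alternative, holds log2 values whose making is not given in the sources used here. Control and outlier spots were dropped, spots of a probe were averaged as log2 and the 75th percentile over the probes of the array was subtracted (Python 3.11.15, pandas 2.3.3). The 35628 probes well above background on 4 or more of 16 arrays entered lmFit and eBayes of limma 3.58.1 under R 4.3.3, with one mean per genotype. A call needed a Benjamini-Hochberg adjusted p under 0.05 and 2-fold. Names came from RefSeq accessions (GRCm38.p6), which named 32994 probes. The build of the arrays differs, so coordinates are those of the promoter table. A gene is given by its brightest probe.

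The members, gene lists and named genes were chosen with earlier results of these data known. Named were all members and relatives, the 8 nearest genes on either side, 5 genes most like each member measured on all arrays or Slfn8, and the 3 largest and smallest interferon-list genes. Some genes that this rule reached are not reported here. Per the labels each array is its own mouse. The leading number of the animal label is shared, however, by wild-type replicates 3 and 4. It is also shared by Fcgr2b-/- replicate 3 and double-deficient replicate 4, and by Fcgr2b-/- replicate 4 and double-deficient replicate 3. As a random block, this number had a correlation of 0.83 within it, so mice that share it may not be independent. The test was checked on simulated data. The alternatives were normexp (offset 50), quantile or median scaling, the authors' table, other filters, fits and tests, blocks and each array left out.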

Additional observations from a re-analysis of the deposited data

Results flagged for a closer look

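Sting gt/gt replicate 4 was at 3.27 on the brighter Slfn9 probe (A_55_P2110537), far from the other 3 mice of its group, whose highest was at 1.08. The gap was 0.939 of the group's range. Of 32 sets of 4 mice checked over the tested member probes this was 1, and chance gives about 1 in 20.

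For Slfn8, every double-deficient mouse lay below the Fcgr2b-/- mean, while every Sting gt/gt mouse lay above the wild-type mean. Double-deficient replicate 2, at −1.35, was close to that Fcgr2b-/- mean of −1.31. Double-deficient minus Fcgr2b-/- was −1.77 within slide 1, 0.32 within slide 2 and −0.37 without Fcgr2b-/- replicate 1. Sting gt/gt minus wild-type was 1.07 and 1.06 within the slides. The log2 difference for the loss of Sting with Fcgr2b missing minus that with Fcgr2b present was −2.05. This difference was not tested, since it uses the groups from which the family was chosen.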

How the results depend on the processing

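No member was called in any of the 5 comparisons under 155 alternative values of that count. Of 815 alternative values of the members' differences, 45 had the other sign, 26 of them with 1 array left out, 19 of them for Slfn9 and 0 of them for Sting gt/gt against wild-type mice. For double-deficient against Sting gt/gt mice, Slfn2 turned from −0.16 to 0.063 with the slide as a block, and over single arrays left out it ran from −0.52 to 0.26. Slfn8 there ran from −0.65 to 0.046, the highest without Sting gt/gt replicate 1, and from −0.35 to −0.19 over the other settings that used both slides. Slfn2 in double-deficient against Fcgr2b-/- mice was 0.47 within slide 2, a setting chosen after seeing the data. The causes were not tested. Over all probes, the 18 calls of Fcgr2b-/- against wild-type became 0 to 37 with single arrays left out, 3 with a random block by the leading number of each animal's label, 5 with normexp, 7 with the authors' table and 144 with the methods' Mann-Whitney test at 2-fold and no adjustment. That test gave 171 for double-deficient against Sting gt/gt, 41 against Fcgr2b-/-, 63 against wild-type and 127 for Sting gt/gt against wild-type mice. The brighter Slfn9 probe in Fcgr2b-/- against wild-type changed sign to −0.13 with median scaling, and the median of its probes gave 0.60. Scaling by the array median moved every difference by the same amount, 0.13 for double-deficient against Sting gt/gt, −0.16 for Fcgr2b-/-, −0.12 for double-deficient and −0.24 for Sting gt/gt against wild-type mice. Slfn3 and Slfn8 have no value where a probe must be above background on all 16 arrays.

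With the replicate number as a block, Slfn8 in double-deficient against Sting gt/gt mice stayed at −0.33, 0 members were called, and Fcgr2b-/- against wild-type had 16 calls. Correlations of deviations from genotype means between mice of the same number were above 0.1 in 3 of 4 pairs for Fcgr2b-/- and for Sting gt/gt against wild-type, in 1 of 4 for double-deficient against Sting gt/gt and against wild-type, and in 0 of 4 against Fcgr2b-/- mice. Since not every pair passed 0.1 in any comparison, the numbers were not taken to pair the mice. Some pairs were well above that cut-off, since Fcgr2b-/- against wild-type gave 0.69, 0.60, −0.07 and 0.49 for replicates 1 to 4. Over all 20 pairs the values ran from −0.60 to 0.69. What mice of one number had in common was not tested.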
